A study of Homo sapiens with 60 samples.

Results

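The genes described here are 37 genes of the NRF2 defence against oxidants and electrophiles, in HepG2, a human hepatocellular carcinoma line, after 24 h with herbal extracts. They were chosen by symbol, matched to the 60675 Ensembl gene rows of the deposited count table, and 37 of 37 had a row. Of these, 35 had enough counts to be tested among 16925 genes. ME1, which makes NADPH from malate, had 0 to 1 counts in a library, and CBR3, a carbonyl reductase, had 0 to 6, so neither was tested.

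The study treated the cells with 8 extracts at 3 doses and measured RNA in 60 libraries of 20.7 to 38 M expected counts (M, mega). Yijin-tang and Soshiho-tang, both multi-herb decoctions extracted in water, are called yijin and soshiho. The single-herb extracts were made in ethanol from Liriopis seu Ophiopogonis Tuber (liriope), Schisandrae Fructus (schisandra), Longan Arillus (longan), Zizyphi Semen (zizyphus), Polygalae Radix (polygala) and Aucklandiae Radix (aucklandia). Most were given at 500 (high), 100 (medium) or 20 µg/mL (low). Polygala was given at 250, 50 or 10 µg/mL and aucklandia at 280, 56 or 11.2 µg/mL. Vehicle was 0.1% DMSO in the sample labels, while the series text gives 2%. The labels give no DMSO content for the extract groups. Vehicle had 3 libraries. Each dose had 3 libraries for most extracts, but 2 for soshiho and only 1 for polygala or aucklandia. The sample codes put vehicle in a set of its own, so against vehicle the extract and the code set cannot be told apart. High dose against low dose is therefore the leading comparison. The labels do not say that libraries of a group came from separate cultures, so p-values measure the spread between these libraries, which may be technical.

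NRF2, encoded by NFE2L2, is a transcription factor that KEAP1 holds at a low level by presenting it to a CUL3 ubiquitin ligase. Oxidants and electrophiles modify cysteines of KEAP1, NRF2 then accumulates, pairs with a small MAF protein such as MAFG and binds antioxidant response elements in its target genes. The targets make and recycle glutathione and thioredoxin, supply NADPH, reduce and conjugate reactive compounds, export the conjugates and store iron. In liver these genes are known for the handling of drugs and plant compounds.

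Hepatocyte markers were high in the vehicle libraries (ALB 6977 and APOB 28610 CPM, counts per library scaled by TMM to a common total) and markers listed for other cell types ranged from 0 to high. COL1A2, DCN and LUM (fibroblast), KDR (endothelial) and PTPRC and CD3E (leukocyte) were at most 0.0898 CPM in the 54 libraries of replicated groups. Of the same lists, LYZ was at 994, CD68 at 48.5, PDGFRB at 12.6, PECAM1 at 4.25 and COL1A1 at 1.07 CPM in vehicle. The spread of a library around its replicates (SD of log2 differences) was 0.137 to 0.19 in 52 libraries but 0.26 in low-dose schisandra replicate 1 and 0.243 in high-dose liriope replicate 2. Results are given without these 2 where leaving them out changed a call. In cultures measured in bulk, fewer cells of a kind and less RNA per cell cannot be told apart.

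At the high dose, a shared group of these genes was higher in soshiho, yijin and schisandra, and no member reached the threshold in liriope, longan or zizyphus. A call means an adjusted p under 0.05 in edgeR's quasi-likelihood test, adjusted over all 16925 genes. Against the low dose, soshiho had 18 of 35 members higher and 0 lower, where 2.81% of all tested genes were higher and 2.27% lower. DESeq2 also called 0 lower in soshiho, and 1 member was lower at an unadjusted p under 0.05. Yijin had 16 higher and 1 lower, where 3.78% of all genes were higher and 4.01% lower. Schisandra had 17 higher and 1 lower, where 3.92% were higher and 3.40% lower. The members' median log2 change was 0.30 in soshiho, 0.22 in yijin and 0.18 in schisandra, and the median over all genes was -0.0016, -0.0027 and -0.0058. Scaling by library totals alone shifted the share of higher calls among all called genes from 48.6% to 35.9% in yijin, from 55.3% to 44.1% in soshiho and from 53.5% to 29.1% in schisandra, while 16, 17 and 13 members stayed above the threshold as higher. In a fit of the schisandra high and low libraries alone, 8 members were higher and 0 lower. There GCLC, GSR, TXNRD1, TKT, UGDH, CBR1, ABCC3, PIR and MAFG were no longer called higher, nor IDH1 lower (edgeR adjusted p 0.0539 to 0.468). The share of all genes called is not given for that fit. Without the 2 libraries that stand apart, 16 members were higher and 1 lower in schisandra. GSR, CBR1 and MAFG were then lost there (edgeR adjusted p = 0.0591, 0.294 and 0.4) and TALDO1 and FTH1 gained (0.0315 and 0.00704). Leaving out these 2 libraries also added MAFG and KEAP1 in yijin (edgeR adjusted p = 0.011 and 0.0483). In soshiho it added KEAP1, FTL, CBR1 and GPX2 (0.0365, 0.0241, 0.0415 and 0.0034). Neither library belongs to yijin or soshiho, and the cause of these gains was not tested.

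**Figure D1:**
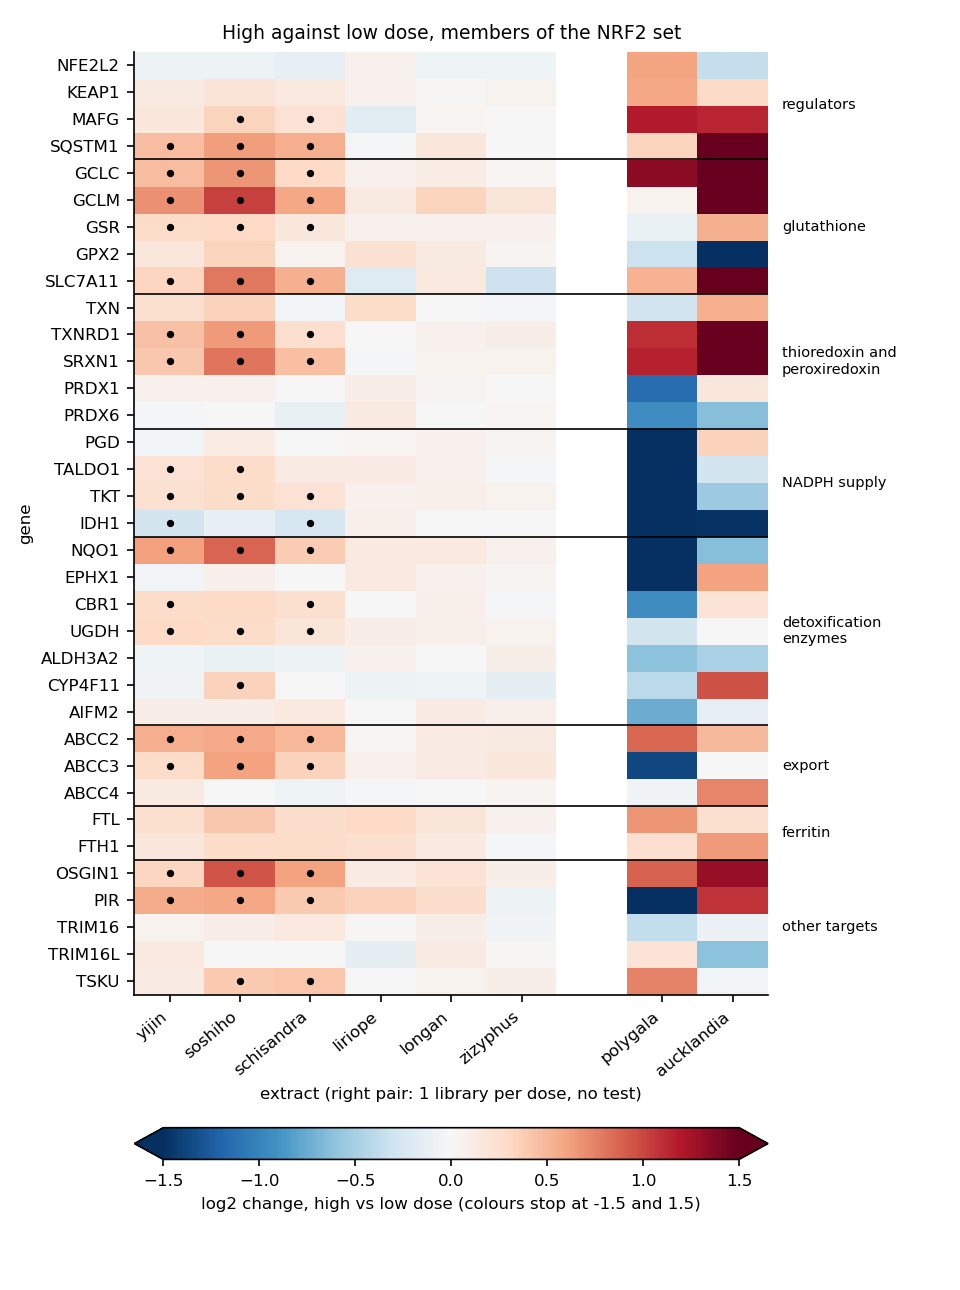
Log2 change between high and low dose for the 35 tested genes (rows, by role) in 8 extracts (columns); black dots mark calls by edgeR at an adjusted p under 0.05, and colours stop at -1.5 and 1.5. The dots fall in yijin, soshiho and schisandra, and the 2 single-library extracts have no test.

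In liriope, longan and zizyphus, edgeR called 0 members higher and 0 lower. The members' medians were 0.07, 0.08 and 0.04. Few genes of any kind changed there: 0.0177% of all genes were higher and 0.0118% lower in liriope, 0.0177% and 0% in longan, and 0.0177% and 0.0177% in zizyphus. At an unadjusted p under 0.05, 9 members were higher and 2 lower in liriope, 9 and 0 in longan, and 4 and 2 in zizyphus. The shares above are for adjusted p. No share of all genes was taken at an unadjusted p, for these or any other unadjusted counts given, so those counts have no background. DESeq2 called 0 in liriope, 0 in zizyphus and 1, SQSTM1, in longan (log2 change 0.17, adjusted p = 0.0109). With no filter on low counts edgeR called 5 members higher in liriope (FTL, FTH1, GPX2, TXN and PIR). Liriope high replicate 2, which stands apart, held 8757 CPM of FTL against 5811 and 5182 in its replicates. Without the 2 libraries that stand apart, edgeR called 1 in longan, GCLM (log2 change 0.33, adjusted p = 0.0207).

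**Figure D2:**
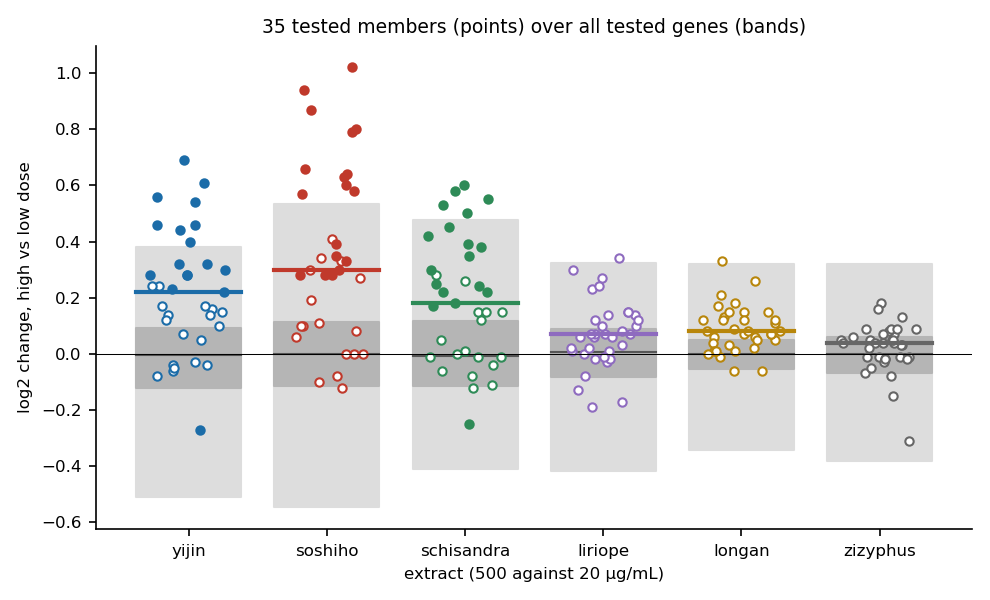
Log2 change between 500 and 20 µg/mL in the 6 replicated extracts; points are the 35 tested genes (filled where called), coloured lines their median, and grey bands hold the middle 50% and 90% of all 16925 tested genes. The coloured lines sit at 0.22, 0.30 and 0.18 in yijin, soshiho and schisandra and at 0.07, 0.08 and 0.04 in liriope, longan and zizyphus.

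Across soshiho, yijin and schisandra, 14 members were higher in all 3 and 19 in at least 1. The 14 are SQSTM1, GCLC, GCLM, GSR, SLC7A11, TXNRD1, SRXN1, TKT, NQO1, UGDH, ABCC2, ABCC3, OSGIN1 and PIR. For GCLC, GSR, TXNRD1, TKT, UGDH, ABCC3 and PIR the schisandra call was lost in the fit of its high and low libraries alone. In 13 of the 14 the fitted change was largest in soshiho. Of these, the difference from yijin was called for OSGIN1, SRXN1 and ABCC3, as given below. The difference from schisandra was not tested. Another 15 members were called in none of the 6 extracts: NFE2L2, KEAP1, GPX2, TXN, PRDX1, PRDX6, PGD, EPHX1, ALDH3A2, AIFM2, ABCC4, FTL, FTH1, TRIM16 and TRIM16L. The share of all genes called in all 3, in at least 1 or in none is not given. These counts of shared calls therefore have no background.

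The promoters are shown because several members moved together and the antioxidant response element is the known NRF2 binding motif. RefSeq windows of 300 bases (250 before and 50 after a transcription start, GRCh38.p14) matched 29 of 37 members. The core TGACNNNGC, searched on both strands, was in a window of 13 of these 29 members (44.8%), and in 16.1% of the 27305 genes with a window. It was in 5 of the 16 matched members called higher in some extract and in 7 of the 12 matched members that were tested and never called higher, IDH1 among them. The members were listed as NRF2 genes, so their share with the core may differ from that of all genes by the choice of list. No conclusion is drawn from it. The windows and the core were chosen with the calls known, and other matches in these members are not shown. The stretches below are 29 bases each, before the start, read along the gene's strand, with the core in capitals. GCLM, TXNRD1 and CBR1 were called higher, IDH1 was called lower, and KEAP1, GPX2 and AIFM2 were not called.
GCLM: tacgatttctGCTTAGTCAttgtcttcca
TXNRD1, upstream start: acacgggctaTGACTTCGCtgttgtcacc
TXNRD1, downstream start: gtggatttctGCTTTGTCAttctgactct
CBR1: tgcgggttctGCAAAGTCAggctagctgg
IDH1: cccctctcgcTGACTCCGCccatcccacg
KEAP1: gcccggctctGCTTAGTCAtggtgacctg
GPX2: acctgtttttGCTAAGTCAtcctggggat
AIFM2: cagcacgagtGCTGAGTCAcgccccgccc
They lie at chr1:93909446-93909474 (GCLM, minus strand), chr12:104215670-104215698 and chr12:104286920-104286948 (TXNRD1, plus), chr21:36069855-36069883 (CBR1, plus), chr2:208255196-208255224 (IDH1, minus), chr19:10502784-10502812 (KEAP1, minus), chr14:64942849-64942877 (GPX2, minus) and chr10:70132829-70132857 (AIFM2, minus). A match is a description of letters, and binding was not measured.

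Of the 4 regulators, SQSTM1 rose in 3 extracts and MAFG in 2, while NFE2L2 and KEAP1 did not pass the test. NFE2L2, the gene of NRF2 itself, was at 257.7, 220.5 and 232 CPM in vehicle. It was at 241 and 236 CPM at low soshiho and 225 and 226 CPM at high soshiho, a log2 change of -0.08 ± 0.064 (SE; edgeR adjusted p = 0.633). In yijin the change of NFE2L2 was -0.08 ± 0.052 (adjusted p = 0.423) and in schisandra -0.12 ± 0.052 (adjusted p = 0.175). Scaled by library totals alone, NFE2L2 was called lower in schisandra (-0.16, adjusted p = 0.0212). The 95% interval for NFE2L2 in soshiho was -0.21 to 0.05. Against vehicle, NFE2L2 was called lower in schisandra (log2 change -0.20) and zizyphus (-0.15). KEAP1, its inhibitor, was at 79.4 and 74.1 CPM at low soshiho and 86.0 and 89.5 at high soshiho, which do not overlap. The KEAP1 change was 0.19 ± 0.061 in soshiho (edgeR adjusted p = 0.0561), 0.14 ± 0.050 in yijin (0.0716) and 0.15 ± 0.050 in schisandra (0.0639), each short of a call. DESeq2 called KEAP1 in soshiho (adjusted p = 0.0423) and schisandra (0.0468), and without the 2 libraries that stand apart edgeR called it in soshiho (0.0365) and yijin (0.0483).

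SQSTM1 encodes p62, an autophagy receptor that binds KEAP1. It was at 195, 218 and 215 CPM in vehicle. At low, medium and high soshiho SQSTM1 was at 217 and 209, at 252 and 252, and at 327 and 332 CPM. Each dose of soshiho lay above the one below it with no overlap. High yijin held 271, 284 and 289 CPM of SQSTM1 against 204, 202 and 207 at low, and high schisandra 308, 311 and 304 against 212, 208 and 210.1. The log2 changes were 0.63 ± 0.046, 0.46 ± 0.038 and 0.55 ± 0.038 (edgeR adjusted p = 8.6e-14, 3.9e-12 and 1.0e-14). In zizyphus SQSTM1 stayed at 208, 212 and 205 CPM at high against 211, 201 and 216 at low. MAFG, the NRF2 partner, was at 85.6 and 83.8 CPM at high soshiho against 67.4 and 67.1 at low (log2 change 0.33 ± 0.086, edgeR adjusted p = 0.0112). That MAFG call was lost without any 1 of the 4 soshiho libraries (adjusted p 0.065 to 0.107). In schisandra MAFG was called at 0.22, but low replicate 1 held 51.5 CPM against 70.0 and 67.0 in its replicates, and without it the change was 0.09 (adjusted p = 0.574). MAFG in schisandra was also lost without high replicate 1, 2 or 3 (adjusted p = 0.115, 0.0523 and 0.154).

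Among the 5 glutathione genes, GCLM, GCLC, GSR and SLC7A11 rose in all 3 extracts and GPX2, a glutathione peroxidase, was not called. The list's median log2 change was 0.66 in soshiho, 0.32 in yijin and 0.30 in schisandra. GCLM and GCLC are the modifier and catalytic subunits of glutamate-cysteine ligase, the rate-limiting enzyme of glutathione synthesis. GCLM was at 37.2, 30.7 and 29.5 CPM in vehicle. In soshiho GCLM went from 34.3 and 35.9 CPM at low to 46.0 and 46.6 at medium and 71.0 and 71.0 at high, with no overlap between doses. The log2 change from low to high was 1.02 ± 0.093 (edgeR adjusted p = 5.9e-11), the largest of any member in a replicated extract. High yijin held 54.02, 54.8 and 49.6 CPM of GCLM against 32.5, 32.4 and 33.4 at low (0.69 ± 0.077, adjusted p = 9.7e-09). High schisandra held 55.1, 56.5 and 54.6 against 43.8, 33.3 and 33.3 (0.58 ± 0.076, adjusted p = 3.7e-07). The schisandra value of 43.8 is the low replicate that stands apart. In longan GCLM was at 42.1, 43.2 and 42.3 CPM at high and 36.8, 32.7 and 31.7 at low, which do not overlap, with an adjusted p of 0.32 (0.33 ± 0.077).

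GCLC, the catalytic subunit, was at 119.9 and 123 CPM at high soshiho against 78.2 and 75.4 at low (log2 change 0.66 ± 0.067, edgeR adjusted p = 6.7e-10). In yijin it was at 102, 98.2 and 97.7 CPM against 72.4, 74.3 and 70.2 (0.46 ± 0.055). In schisandra GCLC rose by 0.30 ± 0.054 (adjusted p = 1.6e-04), with 93.3 CPM in low replicate 1 and 75.6 and 71.9 in the others. A fit of the schisandra high and low libraries alone did not call GCLC (edgeR adjusted p = 0.24). SLC7A11, the cystine importer that feeds glutathione synthesis, was at 98.9 and 92.0 CPM at high soshiho and 54.1 and 56.0 at low (0.79 ± 0.098, adjusted p = 9.4e-08). High schisandra held 71.6, 75.1 and 78.2 CPM against 53.1, 47.2 and 55.8 (0.53 ± 0.080). In yijin SLC7A11 was at 60.3, 62.8 and 62.4 against 51.3, 49.8 and 47.2 (0.32 ± 0.082, adjusted p = 0.00727), a call lost without low replicate 3 (0.29, adjusted p = 0.053). In zizyphus the direction was the other one: SLC7A11 was at 37.9, 36.6 and 39.5 CPM at high and 44.4, 51.8 and 44.9 at low, without overlap but with an adjusted p of 0.484. GPX2 changed by 0.33 ± 0.11 in soshiho (adjusted p = 0.068) and was called there by DESeq2 (0.0409). In edgeR fits of the 2 compared groups alone GPX2 was called in soshiho and yijin (adjusted p = 3.4e-04 and 0.00823). GSR, which reduces oxidized glutathione, rose by 0.30, 0.28 and 0.17 in soshiho, yijin and schisandra. The GSR call in schisandra was lost without low replicate 1 (0.14, adjusted p = 0.0631).

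**Figure D3:**
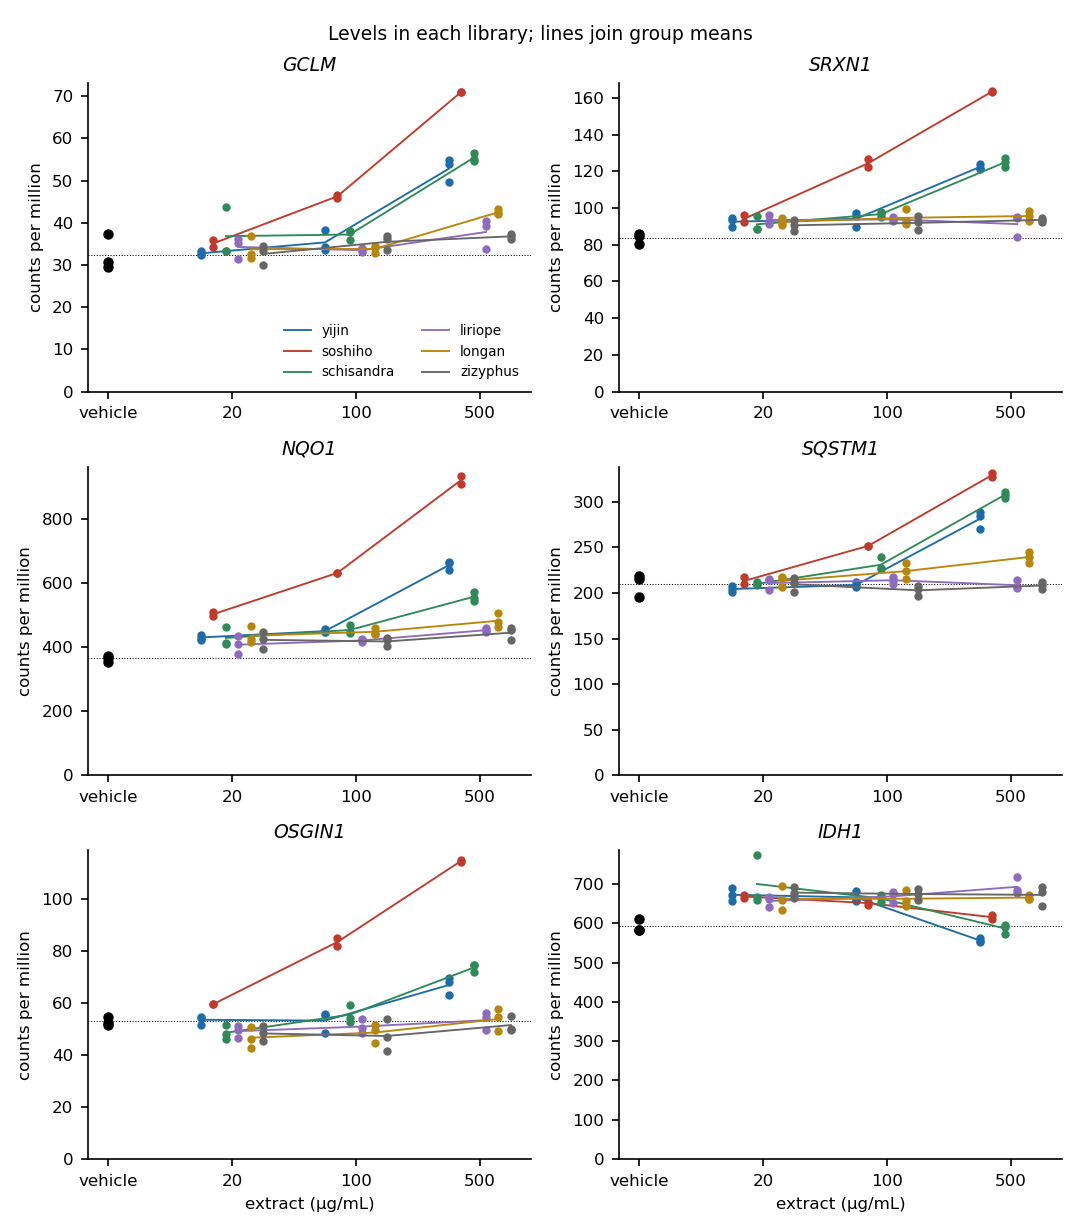
CPM (linear axis from 0) of 6 members in every library of the 6 replicated extracts and vehicle (black; dotted line, vehicle mean), by dose in µg/mL; points are libraries and lines join group means. Soshiho climbs at both dose steps in GCLM, SRXN1, NQO1, SQSTM1 and OSGIN1, yijin and schisandra climb mainly at the last step, and IDH1 is lower at high yijin and schisandra.

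In the thioredoxin and peroxiredoxin group TXNRD1 and SRXN1 rose in all 3 extracts. TXN, PRDX1 and PRDX6 were not called as fitted here, and for TXN this depends on the fit. SRXN1, sulfiredoxin, repairs over-oxidized peroxiredoxins. It was at 80.1, 84.5 and 85.9 CPM in vehicle and at 95.96 and 92.5 at low, 122 and 127 at medium, and 164 and 163 at high soshiho. The log2 change of SRXN1 was 0.80 ± 0.051 in soshiho (edgeR adjusted p = 1.0e-15), 0.40 ± 0.042 in yijin (1.9e-09) and 0.45 ± 0.042 in schisandra (6.0e-11). High yijin held 122, 122 and 124 CPM and high schisandra 122, 127 and 125 CPM of SRXN1, so these 2 extracts reached the same range. TXNRD1, the reductase that keeps thioredoxin reduced, was at 294 and 279 CPM at high soshiho against 189 and 179 at low (0.64 ± 0.068, adjusted p = 2.3e-09). It rose by 0.44 ± 0.055 in yijin and 0.25 ± 0.055 in schisandra. TXN, thioredoxin itself, was at 125 and 119 CPM at high and 96.6 and 96.4 at low soshiho, with an adjusted p of 0.223 (0.34 ± 0.14). With no filter on low counts edgeR called TXN higher in soshiho and yijin (adjusted p = 3.9e-04 and 0.0031). Fits of the 2 compared groups alone did so as well (1.0e-04 and 0.00324). In schisandra low replicate 1 held 138 CPM of TXN against 98.5 and 85.2 in its replicates. The peroxiredoxins, which reduce peroxides, moved by 0.06 (PRDX1) and -0.00 (PRDX6) in soshiho, neither called.

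Of the 4 tested NADPH genes, TKT rose in 3 extracts, TALDO1 in 2, PGD in none, and IDH1 fell in 2. TKT and TALDO1 are transketolase and transaldolase of the pentose phosphate pathway. TKT was at 471 and 463 CPM at high soshiho against 401 and 369 at low (log2 change 0.28 ± 0.046, edgeR adjusted p = 3.2e-05). It rose by 0.23 ± 0.038 in yijin and by 0.22 ± 0.038 in schisandra. TALDO1 was at 137 and 138 CPM at high soshiho and 115 and 111 at low (0.28 ± 0.067, adjusted p = 0.00446), and at 125, 134 and 132 against 106, 110.2 and 119 in yijin (0.22 ± 0.055, adjusted p = 0.00565). Each TALDO1 call rests on 1 low library: it was lost without low replicate 3 of soshiho (0.26, adjusted p = 0.0952) and without low replicate 1 of yijin (0.19, adjusted p = 0.0536). PGD, which makes NADPH in the same pathway, changed by 0.11, -0.04 and -0.01. IDH1, the cytosolic isocitrate dehydrogenase that makes NADPH, went the other way. It was at 553, 554 and 562 CPM at high yijin against 672, 657 and 689 at low (-0.27 ± 0.041, adjusted p = 5.2e-06). High schisandra held 573, 591 and 596 against 774, 667 and 659 (-0.25 ± 0.041, adjusted p = 2.1e-05), so neither pair of groups overlaps. A fit of the schisandra high and low libraries alone did not call IDH1 (edgeR adjusted p = 0.195). In soshiho the IDH1 change was -0.12 ± 0.050 (adjusted p = 0.213). Against vehicle (611, 582 and 583 CPM) high yijin was 0.09 lower and high schisandra 0.01 lower, not called, while low-dose IDH1 was above vehicle in all 6 extracts.

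Among the 7 tested detoxification enzymes NQO1 and UGDH rose in all 3 extracts, CBR1 in yijin and schisandra, and CYP4F11 in soshiho. NQO1, a quinone reductase widely used as a readout of NRF2, was at 355, 368 and 374 CPM in vehicle. In soshiho it was at 509.5 and 497 at low, 633 and 631 at medium, and 910.1 and 935 at high. That is a log2 change of 0.87 ± 0.059 (edgeR adjusted p = 4.5e-15). High yijin held 639.8, 662 and 666 CPM of NQO1 against 423, 429.8 and 439 (0.61 ± 0.048, adjusted p = 2.5e-12), and high schisandra 546, 573 and 554 against 463, 411 and 414 (0.38 ± 0.048, adjusted p = 2.3e-07). NQO1 had no core motif in the RefSeq window. UGDH, which makes UDP-glucuronate for conjugation, rose by 0.28, 0.30 and 0.18 in soshiho, yijin and schisandra. Its soshiho call was lost without high replicate 2 (0.24, adjusted p = 0.118) or low replicate 3 (0.25, adjusted p = 0.112). Its schisandra call was lost without any of 5 of the 6 libraries, high 1, 2 or 3 and low 2 or 3 (adjusted p 0.0602 to 0.207).

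CYP4F11, a fatty acid hydroxylase, was at 28.6 and 29.8 CPM at high soshiho and 23.0 and 22.7 at low (log2 change 0.35 ± 0.069, edgeR adjusted p = 4.6e-04). In yijin CYP4F11 changed by -0.05 ± 0.057 and in schisandra by -0.01 ± 0.056. CBR1, a carbonyl reductase, rose by 0.28 in yijin (adjusted p = 0.0177) and 0.24 in schisandra (adjusted p = 0.0466), and changed by 0.30 in soshiho (adjusted p = 0.0561). The CBR1 call was lost in yijin without high replicate 2 or 3 or low replicate 1 or 3 (adjusted p 0.0505 to 0.0653), and in schisandra without high replicate 1, 2 or 3 or low replicate 1 or 3 (0.0742 to 0.294). EPHX1, the microsomal epoxide hydrolase, and ALDH3A2 and AIFM2, which act on lipid aldehydes and lipid peroxidation, changed by at most 0.15 in size in these 3 extracts.

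Both multidrug exporters ABCC2 and ABCC3 rose in all 3 extracts and ABCC4 was not called. ABCC2, the canalicular pump for conjugates, was at 287, 271 and 279 CPM in vehicle. High soshiho held 526 and 503 CPM against 345 and 349 at low, high yijin 453, 447 and 465 against 323, 313 and 306, and high schisandra 469, 455 and 465 against 337, 318 and 325. The log2 changes of ABCC2 were 0.57 ± 0.056, 0.54 ± 0.046 and 0.50 ± 0.046 (edgeR adjusted p = 4.5e-10, 1.4e-11 and 6.0e-11). ABCC3, a basolateral pump, was at 91.8 and 94.0 CPM at high soshiho against 61.8 and 60.5 (0.60 ± 0.065). It rose by 0.28 ± 0.054 in yijin and 0.35 ± 0.054 in schisandra. ABCC4 changed by 0.00, 0.14 and -0.06.

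The ferritin genes FTL and FTH1, the light and heavy chains of the iron store, were the most abundant members per length, at 19590 ± 1360 and 2015 ± 179 TPM, a level per transcript length, in vehicle (SD, n = 3). Neither passed the test as fitted here, and both depend on the fit. FTL was at 7437 and 8407 CPM at high soshiho and 6296 and 5621 at low, without overlap (log2 change 0.41 ± 0.15, edgeR adjusted p = 0.113). FTH1 was at 2261, 2169 and 2105 CPM at high schisandra and 2014, 1630.0 and 1738 at low (0.28 ± 0.093, adjusted p = 0.0555). Without the 2 libraries that stand apart edgeR called FTL in soshiho (0.41, adjusted p = 0.0241) and FTH1 in schisandra (0.37, adjusted p = 0.00704), and DESeq2 called FTH1 in schisandra (0.0291). With no filter on low counts both were called in yijin, soshiho, liriope and schisandra (FTL 2.4e-04, 4.0e-08, 1.9e-06 and 1.3e-04, FTH1 0.0351, 0.00265, 0.00109 and 4.9e-05). With the replicate block FTL was called in soshiho (0.0404) and FTH1 in schisandra (0.0491), and in fits of the 2 compared groups alone both were called in yijin and soshiho (adjusted p 3.3e-04 to 0.016). Their standard errors were wide: 0.12 and 0.093 in schisandra against 0.038 for SQSTM1. RSEM gave values with a fraction in 58 libraries for FTL and 60 for FTH1, so some of their reads were shared out among genes, and in 58 to 60 libraries for NFE2L2, PRDX1, NQO1, SQSTM1, TRIM16 and TRIM16L. Which genes share these reads was not tested. Exons of NFE2L2 overlap AGPS (134 CPM in vehicle), those of SQSTM1 overlap MGAT4B (113 CPM) and those of PRDX1 overlap MMACHC (23.9 CPM), each on the opposite strand. Exons of MAFG (56.9 CPM in vehicle) overlap SIRT7 (24.6 CPM) on the same strand, and MAFG had values with a fraction in 45 libraries. The lowest tested members were TRIM16L at 1.42, TRIM16 at 3.55 and ABCC4 at 4.70 TPM.

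Of the remaining targets, OSGIN1 and PIR rose in all 3 extracts and TSKU in soshiho and schisandra. OSGIN1, an oxidative stress-induced growth inhibitor, was at 51.7, 52.5 and 54.6 CPM in vehicle. In soshiho it was at 59.6 and 59.6 at low, 85.0 and 81.8 at medium, and 114 and 115 at high (log2 change 0.94 ± 0.085, edgeR adjusted p = 4.0e-11). High yijin held 63.0, 68.0 and 69.6 CPM of OSGIN1 against 51.6, 54.7 and 54.2 (0.32 ± 0.071) and high schisandra 74.4, 74.5 and 71.8 against 46.3, 51.4 and 47.9 (0.60 ± 0.071). PIR, an iron-binding nuclear protein, rose by 0.58 ± 0.11, 0.56 ± 0.088 and 0.39 ± 0.087 in soshiho, yijin and schisandra. TSKU, a secreted leucine-rich protein, was at 104 and 108 CPM at high soshiho against 84.2 and 77.7 at low (0.39 ± 0.061), and at 95.6, 94.7 and 90.1 at high schisandra against 67.0, 70.5 and 73.1 (0.42 ± 0.050). In yijin TSKU was at 82.1, 79.6 and 84.0 against 75.7, 75.4 and 75.5 (0.12 ± 0.050, adjusted p = 0.175).

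In soshiho the medium dose also stood above the low dose. There 8 of 35 members were higher by edgeR, where 0.112% of all genes were. They are SQSTM1, GCLC, TXNRD1, SRXN1, NQO1, ABCC3, OSGIN1 and TSKU, with log2 changes from 0.24 (SQSTM1, adjusted p = 0.00898) to 0.49 (OSGIN1, adjusted p = 0.00218). At most 1 member was called between medium and low in each other extract (TSKU in schisandra, 0.26). The share of all genes called at that step is not given for these other extracts. That the step from low to medium differs between extracts was not tested.

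The dose responses of extracts in 1 code set were compared directly, as high minus low in one less high minus low in the other. Soshiho exceeded yijin for 4 members, where 0.650% of all genes were higher and 0.230% lower. These were OSGIN1 (difference 0.62, 95% interval 0.40 to 0.85, edgeR adjusted p = 8.0e-04), SRXN1 (0.39, 0.26 to 0.52, 3.6e-04), CYP4F11 (0.40, 0.22 to 0.58, 0.0113) and ABCC3 (0.32, 0.15 to 0.49, 0.0476). The ABCC3 difference was lost without any 1 of the 10 libraries (adjusted p 0.063 to 0.253), and the CYP4F11 difference without high replicate 3, low replicate 2 or low replicate 3 of soshiho or high replicate 2 of yijin (0.0529 to 0.0975). For SLC7A11 the difference was 0.47 (0.21 to 0.73) and for NQO1 0.27 (0.11 to 0.42), not called by edgeR (adjusted p = 0.0631 and 0.0875) but called by DESeq2 (0.0337 and 0.0364). Without the 2 libraries that stand apart, edgeR called both (adjusted p = 0.015 and 0.0366). For ABCC2 the difference was 0.03 (-0.11 to 0.18), and for PIR 0.02 (-0.26 to 0.30). No member was lower by either edgeR or DESeq2 (0 in each, and 0 at an unadjusted p under 0.05).

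Schisandra exceeded liriope for 10 members and fell below it for 1, where 2.06% of all genes were higher and 2.04% lower. The largest differences were SLC7A11 (0.72, 0.49 to 0.95), SQSTM1 (0.57, 0.46 to 0.67), SRXN1 (0.49, 0.37 to 0.61), ABCC2 and OSGIN1 (0.48 each), GCLM (0.44), TSKU (0.43) and MAFG (0.40), with ABCC3 at 0.29 and NQO1 at 0.22. IDH1 was the 1 below (-0.33, -0.45 to -0.22, edgeR adjusted p = 1.9e-04). Without the 2 libraries that stand apart, which belong to this pair, 9 members were higher and 1 lower; MAFG was then at 0.16 (adjusted p = 0.346), ABCC3 at 0.28 (0.0656), and GCLC was called at 0.39 (1.2e-04). Single libraries also ended 3 of these calls. MAFG was lost without low schisandra 1 (0.27, adjusted p = 0.0961), high liriope 2 (0.29, 0.0774) or low liriope 3 (0.35, 0.057). ABCC3 was lost without high liriope 2, low liriope 1 or high schisandra 1 (adjusted p 0.0565 to 0.0919). NQO1 was lost without any of 9 of the 12 libraries, all but low schisandra 1, high liriope 3 and low liriope 3 (adjusted p 0.053 to 0.134). Zizyphus and longan differed for 0 members by edgeR and by DESeq2, with 0 higher and 3 lower at an unadjusted p under 0.05. The share of all genes called is not given for this pair, so these counts are not a result about the members.

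**Figure D4:**
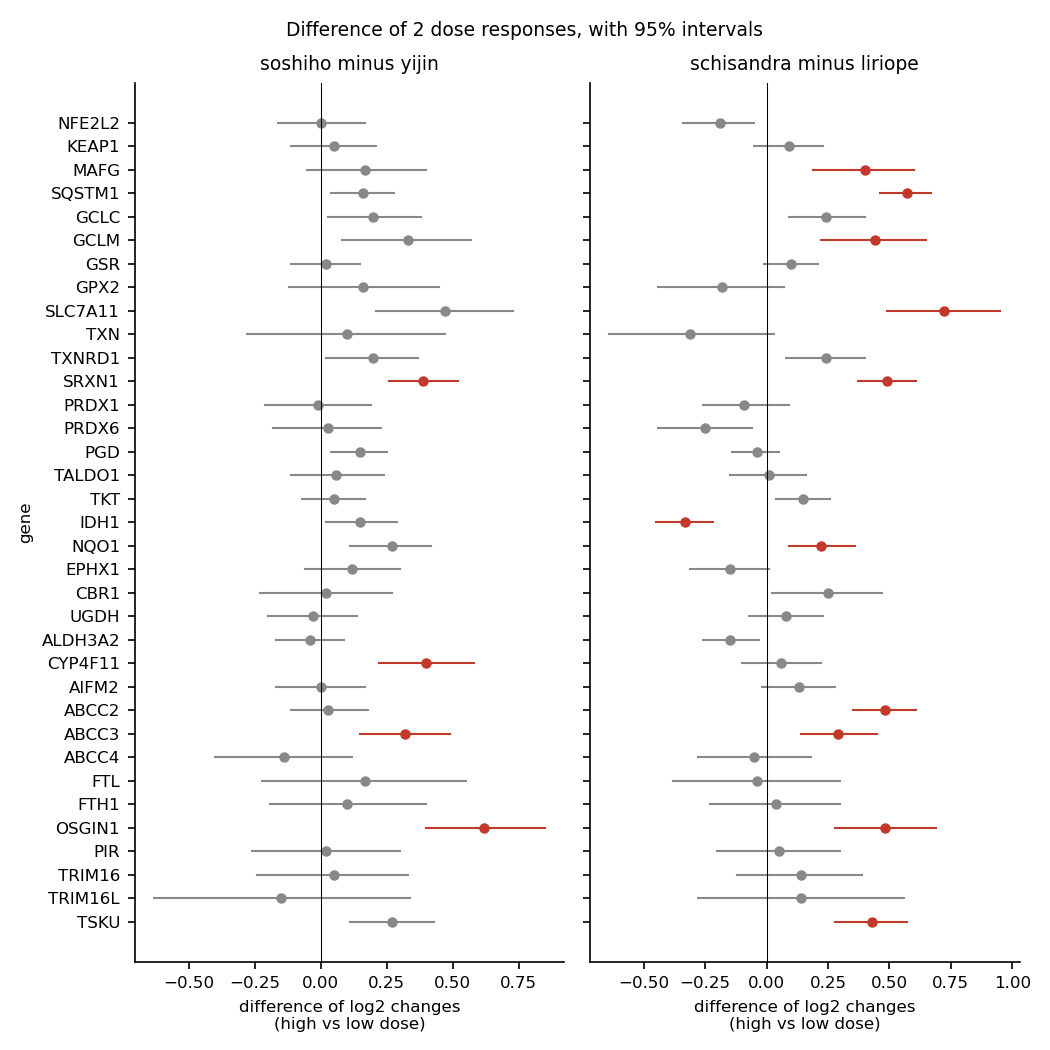
Difference between the log2 changes (high vs low dose) of 2 extracts for the 35 tested genes, with 95% intervals; red marks calls by edgeR at an adjusted p under 0.05. OSGIN1 at 0.62 is the largest called difference of soshiho minus yijin and SLC7A11 at 0.72 of schisandra minus liriope, where IDH1 lies at -0.33.

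Against vehicle more members were called in every extract, as were more genes of any kind. At the high dose edgeR had 26 members higher in soshiho, 22 in yijin, 21 in schisandra, 15 in longan, 13 in liriope and 11 in zizyphus. The share of all genes called higher was 10.6%, 11.1%, 10.8%, 9.64%, 8.57% and 8.15%, and called lower 11.1%, 12.2%, 11.2%, 9.98%, 8.21% and 8.74%. NQO1 was higher in all 6, by 1.33 ± 0.053 in soshiho, 0.84 ± 0.048 in yijin, 0.61 ± 0.048 in schisandra, 0.40 ± 0.048 in longan, 0.31 ± 0.048 in liriope and 0.28 ± 0.048 in zizyphus. The counts in liriope and zizyphus were lower without single libraries, down to 8 and 6, and are given with the alternatives below. Lower calls were NFE2L2 in schisandra and zizyphus and SLC7A11 in zizyphus (-0.24 ± 0.085, adjusted p = 0.041).

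At the low dose 6 members were higher than vehicle in all 6 extracts: SRXN1, PRDX1, IDH1, NQO1, AIFM2 and ABCC2. The share of all genes higher in all 6 is not given, so this count has no background. Whether DMSO content differed between vehicle and extract groups is not labelled, and its part in these changes was not tested. In all, 6 members were higher in yijin, 11 in soshiho, 7 in liriope, 11 in schisandra, 8 in longan and 7 in zizyphus, where 7.11%, 5.48%, 7.63%, 10.5%, 9.74% and 7.79% of all genes were. Lower calls were TSKU in yijin, schisandra, longan and zizyphus (-0.14, -0.25, -0.13 and -0.14), TKT (-0.12) and ABCC3 (-0.17) in schisandra, and EPHX1 in liriope (-0.19). That is 1 member in each but schisandra, with 3, and soshiho, with 0 (also 0 at an unadjusted p under 0.05), where 8.12%, 6.45%, 8.96%, 11.0%, 10.4% and 8.77% of all genes were lower in yijin, soshiho, liriope, schisandra, longan and zizyphus. PRDX1 was 0.21 to 0.33 higher and IDH1 0.15 to 0.24 higher across the 6. PRDX1 was at 389 ± 22.2 CPM in vehicle (SD, n = 3) and at group means of 450.1 to 488 CPM at the low doses, yet was called between high and low in none. These 6 comparisons share the same 3 vehicle libraries, so they are not 6 separate observations.

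Other genes of the pathway were taken from a list of 38 that holds NRF2 partners, haem breakdown enzymes, aldo-keto reductases and further glutathione, thioredoxin, NADPH and export genes, of which 37 were tested. Between high and low dose edgeR called 6 higher and 1 lower in yijin, 8 and 0 in soshiho, 8 and 1 in schisandra, 3 and 0 in liriope, 2 and 0 in longan, and 0 and 0 in zizyphus. Of all genes, 3.78% were higher and 4.01% lower in yijin, 2.81% and 2.27% in soshiho, and 3.92% and 3.40% in schisandra. The shares were 0.0177% and 0.0118% in liriope, 0.0177% and 0% in longan, and 0.0177% and 0.0177% in zizyphus. At an unadjusted p under 0.05 the counts were 11 and 1 in soshiho, 7 and 1 in liriope, 4 and 0 in longan, and 5 and 2 in zizyphus. The aldo-keto reductases, which reduce aldehydes and ketones, changed most widely. AKR1B10 was at 142 and 142 CPM at high soshiho against 58.1 and 58.4 at low (log2 change 1.28 ± 0.066), at 116, 118 and 125 against 44.6, 45.4 and 50.0 in yijin (1.36 ± 0.055), and at 91.6, 98.0 and 95.4 against 53.1, 44.8 and 46.2 in schisandra (0.98 ± 0.055). In each of the 3 extracts this is above the largest change of any of the 35 members, which was 1.02 in soshiho, 0.69 in yijin and 0.60 in schisandra.

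In liriope, where no member was called, the 3 genes called higher of all 16925 were AKR1C1 (0.40 ± 0.050, edgeR adjusted p = 1.0e-05), AKR1C2 (0.46 ± 0.061, 2.3e-05) and AKR1B10 (0.28 ± 0.056, 0.0438). AKR1C2 was at 280.2, 322 and 273 CPM at high liriope and 237, 208 and 192 at low. AKR1C1 and AKR1C2 are near-identical copies, and how reads were split between them is uncertain. In longan, 2 of the 3 genes called higher were on the list, AKR1C2 (0.33 ± 0.061) and HMOX1 (0.33 ± 0.057, adjusted p = 0.0124). HMOX1, haem oxygenase 1, divides the 2 decoctions: it was at 93.1 and 93.7 CPM at high soshiho against 61.8 and 57.9 at low, and at 55.2, 52.2 and 53.9 at high yijin against 53.8, 58.3 and 57.9. The difference of the dose responses was 0.72 (0.54 to 0.90, adjusted p = 2.0e-06).

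In aucklandia and polygala each dose is 1 library, so there is no test, and values are CPM scaled over all 60 libraries. Changes are on the log2(CPM + 1) scale, and a change of at least 1.5-fold is counted. In aucklandia 13 of 35 members were at least 1.5-fold higher at 280 than at 11.2 µg/mL and 5 at least 1.5-fold lower, where 18.5% of all genes were higher and 18.2% lower. The high-dose library thus differed from the low-dose one across a wide range of genes. GCLM was at 38.1, 47.3 and 248 CPM at low, medium and high aucklandia, against 32.7 in vehicle (mean of 3), a log2 change of 2.67. SRXN1 was at 100.1, 140 and 581 CPM, TXNRD1 at 199, 264 and 917, and SQSTM1 at 236, 324 and 867 (2.53, 2.20 and 1.87). These 3 stand in order of dose, and each change is beyond the largest difference between replicates of that gene in the 54 replicated libraries, which was 0.16 to 0.24 on the log2 scale.

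SLC7A11 was at 47.6, 40.1 and 257 CPM in aucklandia, with its level at medium below that at low. GCLC was at 84.3, 99.8 and 250.1, OSGIN1 at 59.5, 80.3 and 149, PIR at 20.1, 28.2 and 43.5, and CYP4F11 at 26.2, 26.4 and 51.7 CPM. FTH1 was at 2102, 3205 and 3267 CPM, so its level at medium was close to that at high. Other members were lower at the high dose: GPX2 was at 405, 367 and 101 CPM and IDH1 at 671, 665 and 239.8. PRDX6 was at 229.5, 225 and 147 CPM. NQO1 was at 593, 672 and 379 CPM in aucklandia, above the 368 of vehicle at low and medium and near it at high. This differs in order from GCLM, SRXN1 and TXNRD1, which were highest at high. In all, 13 of 35 members were highest at medium aucklandia, 15 had a higher value at each dose step, 4 a lower one and 3 were lowest at medium. The share of all genes in each order is not given, so these counts have no background. The aldo-keto reductases AKR1C1, AKR1C2, AKR1C3 and AKR1B10, which are not members, were also highest at medium, as in AKR1C1 at 995, 2032 and 1634 CPM against 460.6 in vehicle.

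Between medium and low aucklandia, 28 of 35 members were higher by any amount, and the share of all genes is not given for that count. The members' median log2 change was 0.24, and the median over all genes was 0.00. At least 1.5-fold higher were 2 members (EPHX1 and FTH1), where 0.880% of all genes were higher and 0.638% lower by that much. Of the listed pathway genes outside the members, MAFF, a small MAF protein, was at 6.13, 8.03 and 135 CPM and HMOX1 at 56.9, 84.7 and 727 CPM.

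In polygala 9 members were at least 1.5-fold higher at 250 than at 10 µg/mL and 13 at least 1.5-fold lower, where 14.4% of all genes were higher and 16.7% lower. The regulator, NADPH and detoxification genes each went one way, while the thioredoxin group had 2 members at least 1.5-fold higher and 2 lower and the exporters 1 and 1. All 4 tested NADPH genes were lower: IDH1 was at 646, 565 and 108 CPM, TKT at 390.1, 308 and 104, PGD at 264, 217 and 84.9, and TALDO1 at 113, 97.6 and 38.4. Their median log2 change was -1.76, and the median over all genes was 0.01. All 7 tested detoxification enzymes were lower by some amount (median -0.74), with NQO1 at 418, 379 and 144 CPM and EPHX1 at 129, 98.4 and 41.6. Of the 4 regulators, each was higher: MAFG was at 70.5, 82.0 and 162 CPM and KEAP1 at 70.3, 84.7 and 106. GCLC was at 78.3, 84.6 and 200.2, TXNRD1 at 172, 213 and 373, SRXN1 at 92.0, 105 and 205, and ABCC2 at 353, 396 and 642 CPM. GCLM, in contrast, was at 33.3, 35.7 and 34.4 CPM, so its level did not follow GCLC. PIR was at 15.6, 13.8 and 3.62 CPM and ABCC3 at 60.3, 54.3 and 22.9, below their levels at low dose.

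The hepatocyte markers moved in the same libraries. Their 8 genes summed to 45120 CPM at low and 17960 CPM at high polygala, and to 43120 and 21080 CPM at low and high aucklandia, against 38190 to 51480 in the 54 replicated libraries. Each of the 8 was lower at the high dose of both extracts, but by unlike amounts. APOB was the largest part of each sum, at 25010 and 11370 CPM at low and high polygala and 24610 and 7656 CPM at low and high aucklandia. SERPINA1 was at 6051 and 1138 CPM at low and high polygala, but at 5491 and 4506 CPM in aucklandia. FGB was at 264 and 260.7 CPM at low and high aucklandia. The part of the marker shift in the members' values was not tested.

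**Figure D5:**
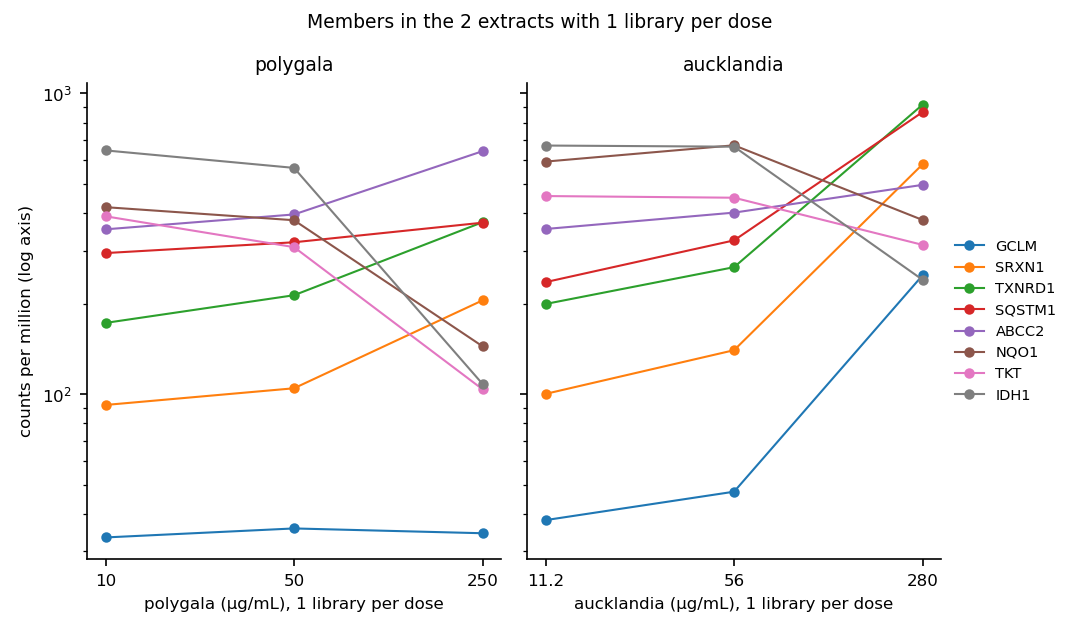
CPM (log axis) of 8 members at the 3 doses of polygala (left; 10, 50 and 250 µg/mL) and aucklandia (right; 11.2, 56 and 280 µg/mL), 1 library per point and no error. GCLM is at 248 CPM at high aucklandia and 34.4 CPM at high polygala, while IDH1 is at its lowest at the high dose of both, 239.8 and 108 CPM.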

How the data were processed

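RNA of HepG2 cells was sequenced from a directional library. Expected counts per gene were deposited in 1 table; per the submitters' processing notes the tools were FastQC 0.11.9, Trim Galore 0.6.5, STAR 2.7.3a and RSEM 1.3.3 with hg38. The annotation release and strand setting are not given in the sources used here. The 54 libraries of replicated groups, with rounded expected counts, were fitted together in edgeR 4.0.16 (R 4.3.3, TMM scaling, filterByExpr, quasi-likelihood test), with Benjamini-Hochberg adjustment within each comparison over 16925 genes and a threshold of 0.05. CPM are TMM-scaled. Polygala and aucklandia were described on log2(CPM + 1), without a test. TPM used GENCODE 29 exon lengths. Alternatives were DESeq2 1.42.0, other scaling, no filter, unrounded counts, a replicate block, fewer libraries and leaving out each library; leaving out 2 libraries that stand apart was chosen after seeing the data. The fit was tested on simulated data. The members and lists were chosen with earlier results of these data known. Members were named by role, and other pathway genes where called in at least 3 extracts, or among the 2 smallest p in an extract; AKR1C3 and MAFF were named after their values were seen. The values of 1 other listed pathway gene are not reported here. Among 51 replicate pairs none held identical values.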

Additional observations from a re-analysis of the deposited data

Results flagged for a closer look

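Differences between the dose responses of 2 extracts are listed because the difference itself passed edgeR's test at an adjusted p under 0.05. For soshiho minus yijin they are OSGIN1 at 0.62, CYP4F11 at 0.40, SRXN1 at 0.39 and ABCC3 at 0.32 on the log2 scale. For schisandra minus liriope they are SLC7A11 at 0.72, SQSTM1 at 0.57, SRXN1 at 0.49, ABCC2 at 0.48, OSGIN1 at 0.48, GCLM at 0.44, TSKU at 0.43, MAFG at 0.40, ABCC3 at 0.29, NQO1 at 0.22 and IDH1 at -0.33.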

How the results depend on the processing

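Between high and low dose, and in the differences of 2 dose responses, no called member changed direction under an alternative. Direction under the alternatives was not checked against vehicle or between medium and low dose. Counts of members past the threshold, higher or lower, moved by over 1.5 times as follows, and the cause was not tested. The share of all genes called under each alternative is not given, so these counts are not a result about the members. With DESeq2, 1 member was lower in yijin against vehicle and 1 higher in longan against low dose. With no filter on low counts, 5 members were higher in liriope and 1 in longan and 1 was lower in zizyphus against low dose, 1 was lower in zizyphus against vehicle, 3 were lower in schisandra minus liriope and 1 in zizyphus minus longan. With library totals alone, 26 were higher in longan and 18 in zizyphus against vehicle, 0 were lower in zizyphus and schisandra against vehicle, and 2 were lower in schisandra against low dose. With only the libraries compared, 8 were higher and 0 lower in schisandra against low dose, and against vehicle 1 was higher in liriope, 5 were higher and 1 lower in zizyphus, and 1 was lower in yijin. Without the 2 libraries that stand apart, 3 were lower in yijin, 3 in liriope and 2 in schisandra against vehicle, and 1 was higher in longan against low dose. Leaving out 1 library gave 0 to 1 lower in yijin, liriope and schisandra against vehicle, 8 to 12 higher in liriope and 6 to 11 higher and 0 to 2 lower in zizyphus against vehicle, 2 to 3 higher in soshiho minus yijin, and 1 to 3 lower in schisandra minus liriope.

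For same-numbered high and low libraries, the deviations from their group means were correlated over the tested genes. The correlations were -0.349 to 0.411, with 4 of 17 above 0.1 and in no extract every pair, so the numbers were not taken to pair the samples. With 2 soshiho libraries per dose the deviations mirror each other, so both soshiho pairs hold the same value (0.0301). Between medium and low dose every pair was above 0.1 in zizyphus (0.156, 0.287 and 0.186) and in no other extract. With the replicate block, 16 members were higher in yijin, 21 in soshiho and 19 in schisandra against low dose, 6 in soshiho minus yijin and 12 in schisandra minus liriope. Here too the share of all genes called is not given. The block over all groups gave 1 member lower in yijin against vehicle. Groups of 2 or 3 libraries limit the precision, and the single libraries of polygala and aucklandia have no error. Vehicle and code set cannot be told apart.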
